A study of Mus musculus with 14 samples.

Results

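Immediate early genes are transcribed within minutes of a stimulus, because the transcription factors that switch them on are already present in the cell. Calcium entry and the MAP kinase pathway activate CREB, SRF with its ELK partners, and MEF2, which bind near the start of these genes, and the transcripts are then removed quickly. In the brain they are read as marks of recent neuronal activity, although growth factors and handling at dissection also induce most of them. The 10 genes described here were chosen by symbol: Fos, Fosb, Egr1, Arc, Npas4, Junb, Nr4a1, Ier2, Dusp1 and Btg2. All 10 were among the 17927 genes in the RNA-SEQ counts of mouse brains at postnatal day 2 (P2).

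The study compared 7 WT mice with 7 mice that lack Capn15, a calpain protease (Capn15 KO, from a Capn15 lacZ-Neo line on a C57BL/6J background), to look for mRNAs that depend on Capn15. The mice were untreated, neonates were killed by decapitation, and whole frozen brains from 6 litters were used. Letters in the column names of the counts, read here as litters A to F, put 2 brains in each litter except litter B, which had 4, and each litter held as many WT as Capn15 KO brains. The column names also give 8 male and 6 female brains, and the labels place all 14 in a single batch. Libraries held between 37620954 and 70910163 counts. Capn15 itself was at 25.4 ± 3.07 CPM (counts scaled to a library of 1000000) in WT and 14.5 ± 2.67 CPM in Capn15 KO (SD, n = 7 each), and was lower in Capn15 KO in 6 of 7 pairs (edgeR's quasi-likelihood test, log2 fold change -0.81 ± 0.118 SE, FDR = 0.0747). In litter F the library labelled WT held 18.7 CPM of Capn15 and the library labelled KO held 20.2 CPM, which goes against the labels, so genotype results are given below with and without this litter. The labels name the cells as neurons, while each of the marker lists for radial glia and astrocytes, oligodendrocyte lineage, microglia, vessels, meninges and choroid plexus had all its genes above 0 in all 14 libraries. In such bulk samples fewer cells of a type and less RNA per cell cannot be told apart.

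Promoter sequences were searched for motifs that these factors are known to bind. RefSeq promoters on GRCm38.p6 were matched by symbol for 7 of the 10 genes (Fos, Fosb, Junb, Nr4a1, Dusp1, Btg2 and Npas4), and the 250 bases before the start of transcription were searched on both strands. The core of the CRE, the site bound by CREB (TGACG), was present in 7 of 7, against 17.8% of 32851 promoters. The full CRE (TGACGTCA, which contains this core on each strand) was present in 2 of 7, Btg2 and Dusp1, against 1.55%. The TATA box (TATAAA) was found in Fos and in 12.4% of all promoters. A site for Egr proteins (GCGTGGGCG or GCGGGGGCG) was found in Fosb and Nr4a1 and in 3.06% of all promoters. The AP-1 site (TGACTCA, bound by Fos and Jun proteins) and the CArG box bound by SRF were found in 0 of 7 windows, against 4.46% and 1.47% of all promoters. Sites farther upstream than these 250 bases were not searched, so their absence from these genes cannot be read from this. The windows of 4 genes are shown 5′ to 3′ on the strand of the gene, ending next to the start of transcription, with the matches in capitals. Fos and Junb are shown because their levels varied together across the brains, and Btg2 and Dusp1 because they held the full CRE. They lie at chr12:85473640-85473889 (Fos, plus strand), chr8:84978749-84978998 (Junb, minus strand), chr1:134079156-134079405 (Btg2, minus strand) and chr17:26508520-26508722 (Dusp1, minus strand, without the 47 bases nearest the start, which GENCODE annotates as exon).
Fos: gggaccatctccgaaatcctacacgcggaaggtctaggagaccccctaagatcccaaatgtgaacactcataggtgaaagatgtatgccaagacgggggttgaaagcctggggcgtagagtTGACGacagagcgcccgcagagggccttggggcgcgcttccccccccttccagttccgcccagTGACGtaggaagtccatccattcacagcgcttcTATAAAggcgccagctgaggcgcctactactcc
Junb: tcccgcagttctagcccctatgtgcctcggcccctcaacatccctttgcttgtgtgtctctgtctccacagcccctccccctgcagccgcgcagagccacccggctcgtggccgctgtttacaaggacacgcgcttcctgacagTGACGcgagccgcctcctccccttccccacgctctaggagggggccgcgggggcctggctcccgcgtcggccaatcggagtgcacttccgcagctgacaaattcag
Btg2: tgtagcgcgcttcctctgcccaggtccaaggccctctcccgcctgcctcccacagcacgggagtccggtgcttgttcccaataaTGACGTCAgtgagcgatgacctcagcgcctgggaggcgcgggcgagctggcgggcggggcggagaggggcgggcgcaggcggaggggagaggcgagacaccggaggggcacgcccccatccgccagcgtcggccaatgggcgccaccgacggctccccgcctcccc
Dusp1: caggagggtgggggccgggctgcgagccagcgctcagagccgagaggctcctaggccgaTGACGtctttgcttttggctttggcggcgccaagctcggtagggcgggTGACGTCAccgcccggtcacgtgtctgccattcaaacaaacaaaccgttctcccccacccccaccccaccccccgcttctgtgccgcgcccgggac

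On GRCm38, in GENCODE M21, Fos spans 85473890 to 85477273 on chromosome 12, Npas4 4984355 to 4990316 on chromosome 19, Arc 74669083 to 74672570 on chromosome 15 and Junb, whose longest transcript has 1 exon, 84974484 to 84978718 on chromosome 8, while Egr1 lies on chromosome 18. All 10 genes had counts in all 14 newborn brains. Per exon length, Btg2, an antiproliferative gene known from neurogenic progenitors, was the highest, at 6.20 ± 0.475 CPM per kb (SD, n = 14), and was above Dusp1 in 14 of 14 brains. Dusp1, a phosphatase that switches MAP kinases off, was at 3.57 ± 0.369 CPM per kb, and Ier2, a nuclear protein, at 3.43 ± 0.340 CPM per kb. These neighbours were close, with Dusp1 above Ier2 in 11 of 14 brains. Junb, a partner of Fos in AP-1, and Arc, a postsynaptic protein that acts on AMPA receptor uptake, did not separate, at 2.75 ± 0.50 and 2.73 ± 0.423 CPM per kb, with Junb above Arc in 6 of 14 brains. The same held for Fos, the best known AP-1 subunit, at 2.29 ± 0.307 CPM per kb, and the orphan nuclear receptor Nr4a1 at 2.2 ± 0.221 CPM per kb, where Fos was the higher in 7 of 14 brains. Below these, each gene was under the one before it in 14 of 14 brains. The zinc finger factor Egr1 was at 0.993 ± 0.279 CPM per kb, Npas4, a transcription factor induced mainly by neuronal calcium entry, at 0.565 ± 0.191 CPM per kb, and the AP-1 subunit Fosb at 0.0614 ± 0.0260 CPM per kb.

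**Figure D1:**
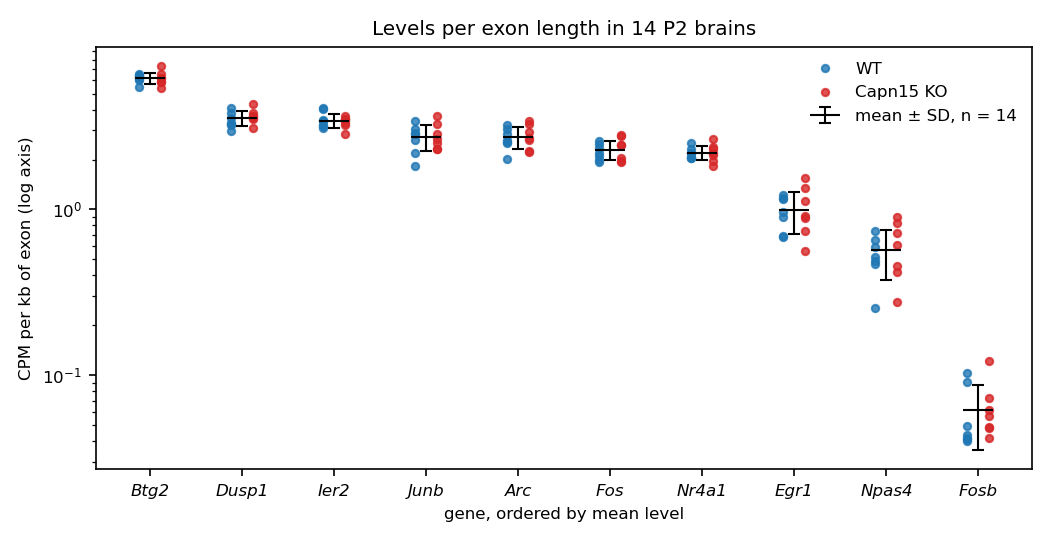
Level of each immediate early gene in CPM per kb of exon (vertical log axis), with genes ordered by mean level along the horizontal axis, 1 point per brain (WT blue, Capn15 KO red) and the mean ± SD over 14 brains in black. The levels ran from 6.20 CPM per kb for Btg2 to 0.0614 CPM per kb for Fosb, and WT and Capn15 KO points overlapped for all 10 genes.

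Fosb rested on 10 to 29 counts in a library, so that its values carry wide counting intervals. Its lowest value, 0.250 CPM in WT replicate 2, had a 95% Wilson interval from 0.136 to 0.459 CPM, and its highest, 0.759 CPM in Capn15 KO replicate 7, from 0.529 to 1.09 CPM. The other 9 genes had at least 42 counts in each library. The genes also differed in how much they varied between brains. The highest brain was 3.53 times the lowest for Npas4, 2.76 times for Egr1 and 2.0 times for Junb, but 1.35 times for Btg2. The SD of log2 CPM put Egr1 at percentile 97.3 and Npas4 at percentile 96.9 among genes of a similar level, while Btg2 lay at 48.3, Nr4a1 at 47.5 and Ier2 at 31.9. The most variable genes for their level were thus Egr1 and Npas4.

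The genotype comparison asked whether loss of Capn15 changed these activity genes. None of the 10 was called between Capn15 KO and WT in edgeR's quasi-likelihood test with litter and sex in the model (FDR under 0.05), where 0.00558% of all 17927 genes (1 gene) were called. At an unadjusted p under 0.05 only Fos passed, against 5.14% of all genes. DESeq2, limma-voom and edgeR's likelihood ratio test called 0 of the 10 at an FDR under 0.05. Over all genes they called 0.123%, 0.00558% and 0.19%, in that order. At that unadjusted p they passed 0 of the 10. The fitted log2 fold change was above 0 for 7 of the 10 genes, with a median of 0.069 beside 0.0015 over all genes tested. WT and Capn15 KO values overlapped for all 10 genes, and the exact two-sided permutation test of 7 against 7 brains, which can go no lower than 0.000583, gave p between 0.343 and 0.987.

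Among the AP-1 genes, Fos lay between 4.57 and 6.05 CPM in WT (median 5.16) and between 4.56 and 6.58 CPM in Capn15 KO (median 5.74). The ranges overlapped, and Fos was higher in Capn15 KO in 3 of 7 pairs of the same replicate number. In litter B the replicate number alone set which WT brain was paired with which Capn15 KO brain. There Fos was higher in Capn15 KO replicate 3 than in WT replicate 2, so the count depends on this pairing. The fit that also took account of litter and sex gave a log2 fold change of 0.12 ± 0.0573 SE (FDR = 0.960, edgeR). Junb lay between 4.22 and 7.83 CPM in WT (median 6.57) and between 5.36 and 8.45 CPM in Capn15 KO (median 6.15), with a log2 fold change of 0.069 ± 0.0675 SE. Fosb was at 0.365 ± 0.166 CPM in WT and 0.402 ± 0.170 CPM in Capn15 KO (SD, n = 7 each), and its fold change turned from 0.070 to -0.25 (log2) when litter F was left out.

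Egr1 lay between 3.07 and 5.49 CPM in WT (median 4.32) and between 2.51 and 6.92 CPM in Capn15 KO (median 4.09). The Capn15 KO brains thus held both the lowest and the highest Egr1 value of the 14, and the log2 fold change was 0.12 ± 0.0908 SE. Npas4 ran from 1.05 to 3.07 CPM in WT (median 2.12) and from 1.15 to 3.70 CPM in Capn15 KO (median 2.51), with a log2 fold change of 0.16 ± 0.144 SE, the largest estimate of the 10. Arc ran from 6.16 to 9.94 CPM in WT (median 8.04) and from 6.76 to 10.5 CPM in Capn15 KO (median 8.25), with a log2 fold change of 0.015 ± 0.0778 SE. None of these differences exceeded the spread between brains.

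The estimates of the remaining genes lay between those of Ier2 and Dusp1. Dusp1 was at 11.5 ± 1.26 CPM in WT and 12.1 ± 1.19 CPM in Capn15 KO (log2 fold change 0.096 ± 0.0534 SE). Btg2 was at 17.0 ± 0.965 and 17.0 ± 1.66 CPM, Nr4a1 at 7.71 ± 0.612 and 7.75 ± 0.963 CPM, and Ier2 at 5.32 ± 0.620 and 5.12 ± 0.414 CPM (WT and Capn15 KO, SD, n = 7 each), with log2 fold changes of -0.013, -0.00073 and -0.032. Without litter F the estimates were 0.13 for Fos, 0.12 for Npas4, 0.099 for Egr1 and 0.071 for Dusp1. Nr4a1 came to -0.075 and Ier2 turned to 0.016. That fit called 0 of the 10 genes, beside 0.039% of all genes.

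**Figure D2:**
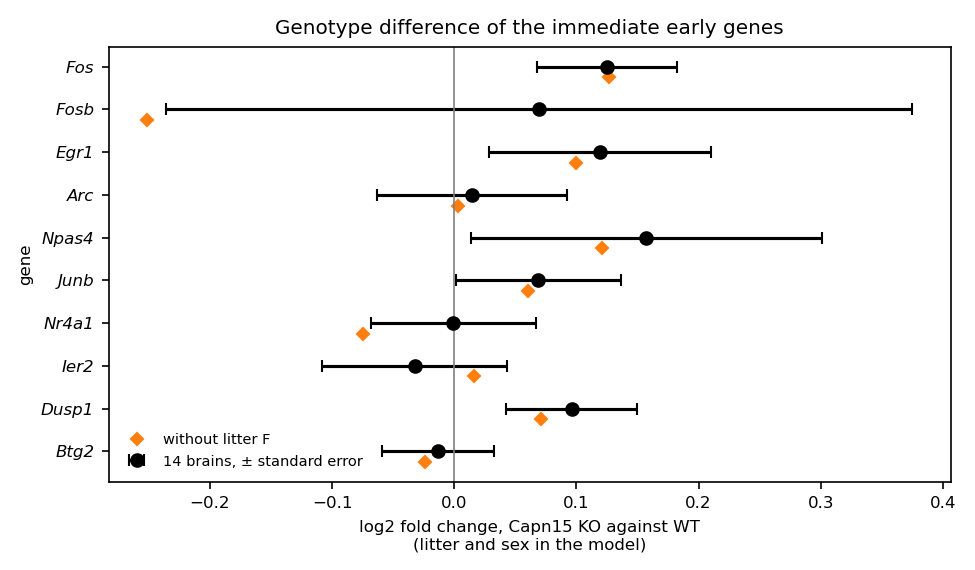
Log2 fold change of Capn15 KO against WT (horizontal axis) for each immediate early gene (vertical axis), fitted with litter and sex over 14 brains, with bars for the standard error and orange diamonds for the fit without litter F. The estimates ran from -0.032 for Ier2 to 0.16 for Npas4, and the diamond for Fosb lies at -0.25.

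Other genes of the same pathways were read beside them. Of 27 other immediate early genes present, 0 were called for genotype, and 3 had an unadjusted p under 0.05, all higher in Capn15 KO, where 5.14% of all genes had such a p, 516 of them higher and 406 lower. They were the nuclear receptors Nr4a2 (log2 fold change 0.16 ± 0.0370 SE, FDR = 0.371) and Nr4a3 (0.13 ± 0.0432 SE, FDR = 0.749) and the mRNA decay factor Zfp36 (0.28 ± 0.115 SE, FDR = 0.933), from edgeR's quasi-likelihood test. The likelihood ratio test called 1 of the 27, and 0.19% of all genes. That call was not made without litter F. Of 21 genes of the later activity response, 0 were called, and 1 had an unadjusted p under 0.05, Spry4, an inhibitor of receptor kinase signalling (0.11 ± 0.0466 SE, FDR = 0.944). Of 29 upstream regulators, 0 were called, and 6 had an unadjusted p under 0.05, all higher in Capn15 KO, with the smallest p for the coactivators of CREB, Crebbp (0.13 ± 0.0422 SE, FDR = 0.746) and Ep300 (0.13 ± 0.0468 SE, FDR = 0.784). The median log2 fold changes of the 3 lists were 0.021, 0.016 and 0.017. Without litter F 0 of the genes in these lists were called, beside 0.039% of all genes.

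Litter separated the brains where genotype did not. An F test of the litter terms, in the same edgeR fit, called 6 of the 10 genes, or 60% of them, at an FDR under 0.05, where it called 29.6% of all genes tested. They were Egr1 (FDR = 0.00187), Junb (FDR = 0.00429), Npas4 (FDR = 0.00920), Arc (FDR = 0.0363), Dusp1 (FDR = 0.0416) and Fos (FDR = 0.0471), while Btg2 (FDR = 0.0955), Nr4a1 (FDR = 0.224), Ier2 (FDR = 0.525) and Fosb (FDR = 0.592) were not called.

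Egr1 gave the clearest split. In litter A the WT brain held 4.04 CPM and the Capn15 KO brain 4.09 CPM, in litter B the WT brains held 3.12 and 4.32 CPM and the Capn15 KO brains 2.51 and 3.33 CPM, and in litter C the values were 3.07 CPM in WT and 3.98 CPM in Capn15 KO. Litter D held 5.22 CPM in WT and 6.92 CPM in Capn15 KO, litter E 5.49 and 5.05 CPM, and litter F 5.19 and 6.02 CPM. All 6 brains of litters D, E and F thus lay above all 8 brains of litters A, B and C, and in both sets the genotypes were mixed. The mean was 3.32 CPM in litter B and 6.07 CPM in litter D, a ratio of 1.83.

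Npas4 followed a like order. Its means were 1.51 CPM in litter B, 1.91 CPM in litter C and 2.26 CPM in litter A, then 2.73 CPM in litter E, 3.06 CPM in litter F and 3.38 CPM in litter D, a ratio of 2.24 between the extremes. Within litter B its 4 values spread from 1.05 to 2.12 CPM. Junb was low in all 4 brains of litter B, at 4.22 and 5.04 CPM in WT and 5.36 and 5.36 CPM in Capn15 KO, below each of the other 10 brains, and highest in litter F, at 7.83 CPM in WT and 8.45 CPM in Capn15 KO. Arc was high in litter D (9.36 and 10.01 CPM) and litter F (9.94 and 10.5 CPM), above each of the other 10 brains, whose highest value was 8.96 CPM. For Fos the litter means were closer, from 4.73 CPM in litter B to 6.29 CPM in litter F.

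Dusp1 had another pattern, with its highest mean, 13.1 CPM, in litter B, where Egr1, Npas4, Junb and Fos were lowest, and its lowest, 10.5 CPM, in litter A. Btg2, which did not pass the litter test, was at 18.0 CPM in litter B and 14.99 CPM in litter A. Nr4a1 ran from 6.79 CPM in litter C to 8.58 CPM in litter D and Ier2 from 4.76 CPM in litter A to 5.57 CPM in litter F, neither past the threshold.

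**Figure D3:**
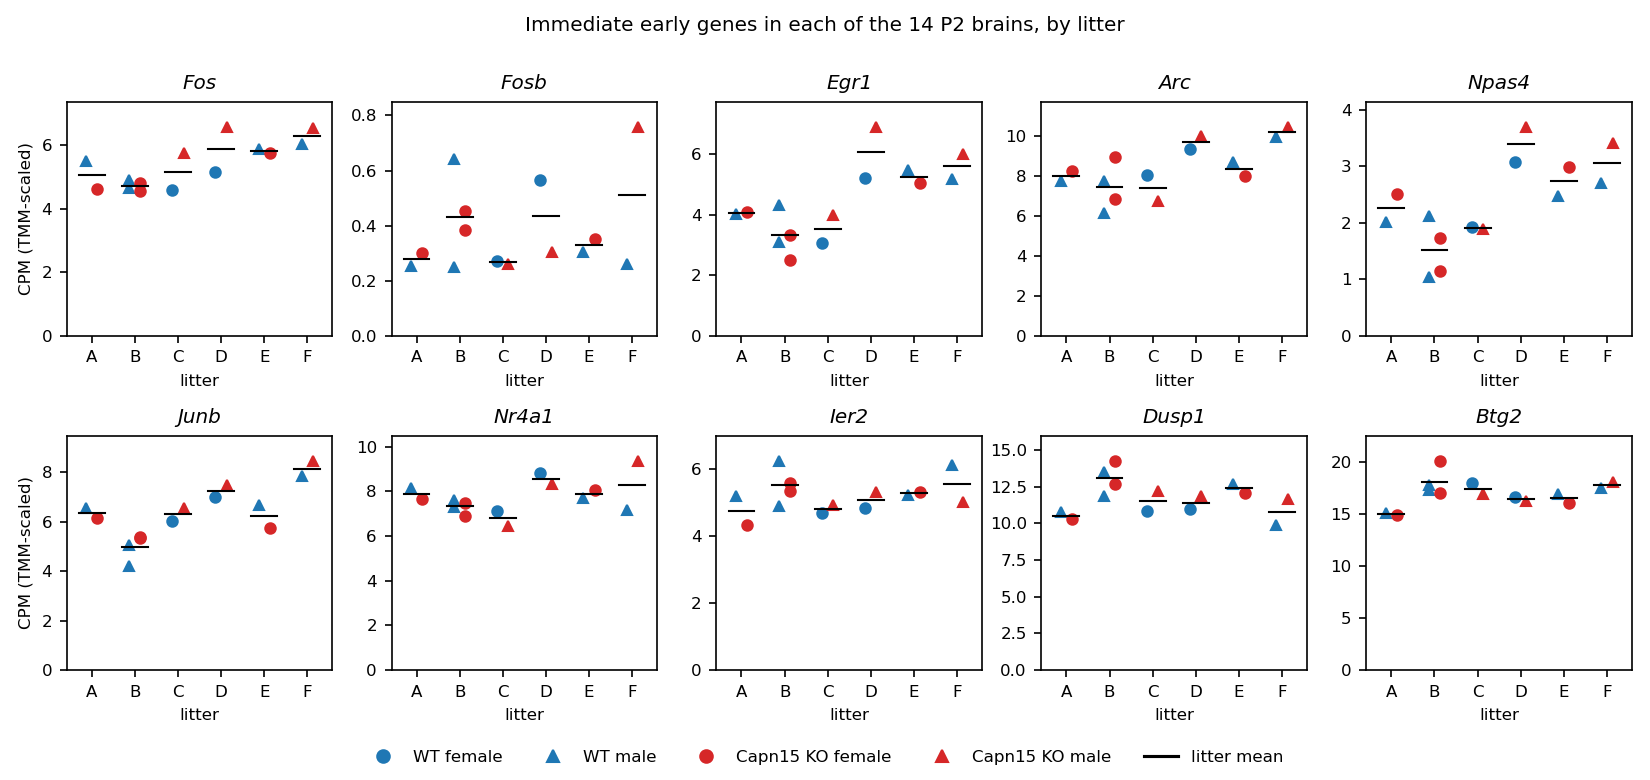
CPM of each immediate early gene (vertical axes from 0) in each of the 14 brains, grouped by litter A to F (horizontal axes), with WT in blue, Capn15 KO in red, females as circles, males as triangles and the litter mean as a black line. Egr1 in litters D, E and F lies above all brains of litters A, B and C, and Junb in litter B lies below all other brains.

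The litter result rested in part on litter B, which holds 4 of the 14 brains. Without it the F test called 1 of the 10 genes, Egr1 (FDR = 0.0256), where it called 1.09% of all genes, while Npas4 had an FDR of 0.0713, Arc of 0.135 and Junb of 0.240. Without litter F it called 3 of the 10, Egr1, Npas4 and Junb, where it called 27.5% of all genes. Leaving out WT replicate 1, WT replicate 2, Capn15 KO replicate 1, Capn15 KO replicate 2 or Capn15 KO replicate 4 also left 3 called, and each of the other 9 brains left 4 or 5. Egr1 was called in 24 of 24 other settings, Npas4 and Junb in 23, Arc in 14, Dusp1 in 11 and Fos in 5, and Nr4a1, not called over the 14 brains, in 2.

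Cell type markers also differed between litters, and each count called is to be read beside the 29.6% of all genes. Summed over 7 red blood cell markers, of which 7 were called for litter, the level was highest in litter B, at 199 to 325 CPM, and lowest in litter D, at 31.2 to 36.1 CPM, where Egr1 and Npas4 were highest. The 8 oligodendrocyte lineage markers, of which 8 were called, summed to 347 to 386 CPM in litter B and 590 to 601 CPM in litter F. Of 13 neuron markers 7 were called, and their sum lay between 7607 and 7900 CPM in litter B and between 7916 and 8433 CPM in the other litters. Litter calls were also made for 7 of 8 radial glia and astrocyte markers, 4 of 9 microglia markers, 7 of 10 endothelial and mural markers, 5 of 8 meningeal fibroblast markers and 3 of 8 choroid plexus markers (37.5%). None of these markers was at 0 in any library. The part of these differences in the litter result was not tested.

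Litter differences were also measured in the rest of the pathway. Calls were made for 15 of 27 other immediate early genes (55.6%), 12 of 21 genes of the later response (57.1%) and 16 of 29 upstream regulators (55.2%), beside 29.6% of all genes, and without litter B for 0, 2 and 2 of them. Egr3, a relative of Egr1, had its lowest mean in litter B, at 3.76 CPM, and its highest in litter A, at 7.42 CPM, with 7.25 CPM in litter D (FDR = 0.000129). Ier5 was highest in litter B, at 37.6 CPM, and lowest in litter A, at 26.0 CPM, with 26.8 CPM in litter D (FDR = 0.000121). The MAP kinase phosphatase Dusp4 was likewise highest in litter B, at 59.2 CPM, and lowest in litter A, at 31.8 CPM, with 38.5 CPM in litter D (FDR = 2.31e-05). Among the upstream regulators the calcium-dependent kinase Camk2a was at 42.9 CPM in litter B, 69.2 CPM in litter A, 69.4 CPM in litter D and 73.5 CPM in litter F (FDR = 3.03e-05). The transcription factor Mef2c was lowest in litter B, at 525.8 CPM, and highest in litter A, at 831.2 CPM (FDR = 1.29e-05). Litter A, where Egr1 was among the lower litters, was thus high for Egr3, Camk2a and Mef2c.

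**Figure D4:**
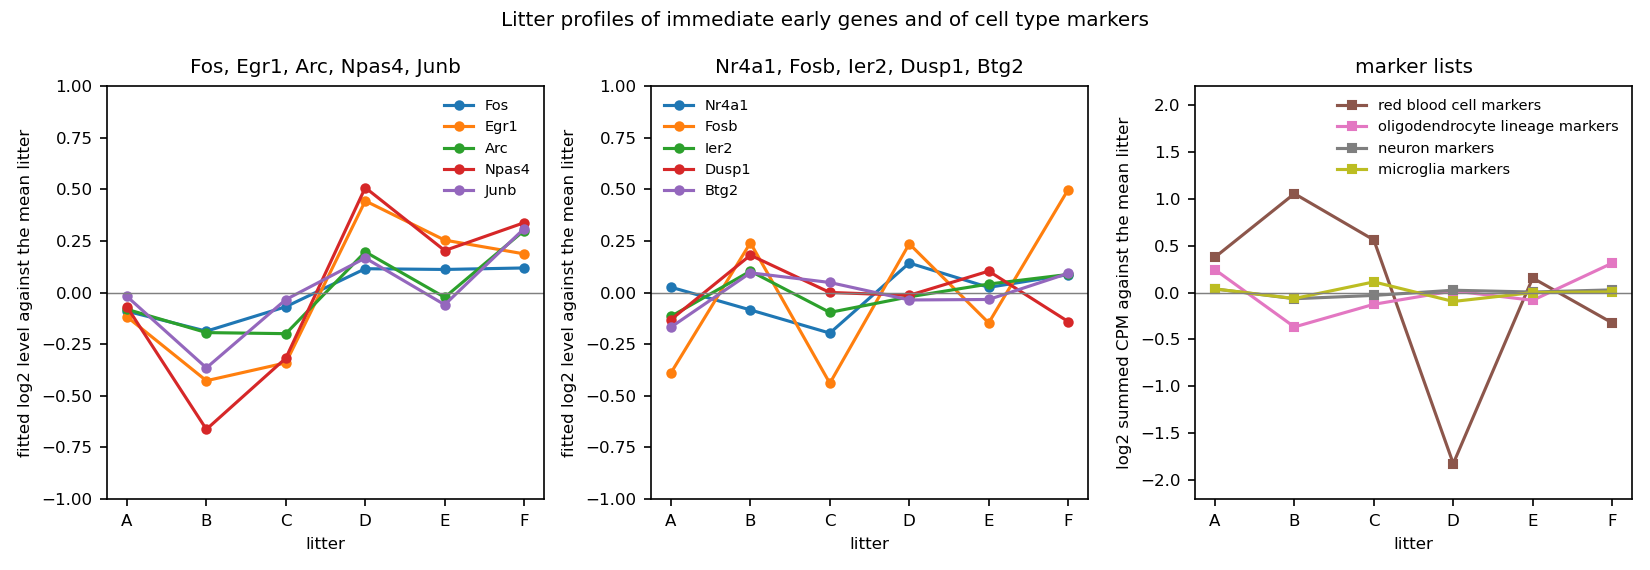
Fitted log2 level in each litter (horizontal axis) against the mean of the 6 litters (vertical axis), with genotype and sex in the model, for Fos, Egr1, Arc, Npas4 and Junb (left) and for Nr4a1, Fosb, Ier2, Dusp1 and Btg2 (middle), and the log2 summed CPM of 4 marker lists against their mean litter (right, on a wider axis). The left genes all lie under 0 in litters B and C and over 0 in litter D, and the red blood cell markers are high in litter B and low in litter D.

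Sex and genotype differed together in pairs 1 to 6, whose brains were of opposite sex, so the genotype estimates depended on the sex term. Without that term the log2 fold change of Capn15 KO against WT was 0.067 for Fos and 0.043 for Egr1, in place of 0.12 for each. None of the 10 genes was called for sex, where 0.0669% of all genes were called, and 2 of the 10 had an unadjusted p under 0.05, against 5.04% of all genes. Fos was at 5.73 ± 0.697 CPM in males (n = 8) and 4.91 ± 0.463 CPM in females (n = 6), and was higher in the male in 6 of 6 pairs of opposite sex (log2 fold change 0.21 ± 0.0622 SE, FDR = 0.877, edgeR's quasi-likelihood test). Egr1 was higher in the male in 5 of 6 such pairs (0.30 ± 0.0990 SE, FDR = 0.927). These pair counts depend on the pairing within litter B, where males were matched to females by replicate number alone. There the female Capn15 KO replicate 3 held more Fos and more Egr1 than the male WT replicate 2.

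Coexpression was measured over the log2 CPM of the 14 brains, for 45 pairs of genes. Pearson's r was at least 0.7 for 9 of the 45 pairs (20%), beside 5.41% of all pairs of the 15227 genes with a mean of 1 CPM or more, and all 9 were among the 10 pairs of Fos, Egr1, Arc, Npas4 and Junb, which were grouped after their values were seen. In these 10 pairs r ran from 0.604 to 0.913 with a median of 0.783, while over all 45 pairs the median was 0.238 and 13 were negative. The group had no sharp edge. Nr4a1, left outside it, gave r of 0.653 with Egr1, 0.665 with Npas4 and 0.651 with Arc, above Fos with Arc at 0.604. Its rho was 0.763 with Egr1 and 0.763 with Npas4. With Fos and Junb the r of Nr4a1 was lower, at 0.440 and 0.456. The permutations treat the 14 brains as independent, although brains shared litters and 29.6% of all genes were called for litter (1.09% without litter B).

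Egr1 and Npas4 were the closest pair, with r = 0.913 (permutation p = 3.0e-05) and rho = 0.908 (permutation p = 4.0e-05, n = 14 brains). Adjusted over all genes paired with Egr1 the permutation p of r was 0.0598, and over those paired with Npas4 it was 0.0121. Without the 2 brains farthest from the Egr1 median r was 0.856, and it was 0.888 without litter B. Fos and Egr1 gave r = 0.859 (permutation p = 8.0e-05) and rho = 0.842 (permutation p = 0.000390), with adjusted permutation p of 0.180 and 0.0664 for r, and 0.774 without the 2 brains farthest from the Fos median. Arc and Npas4 gave r = 0.834 (permutation p = 0.000210) and rho = 0.776 (permutation p = 0.00175), with adjusted permutation p of 0.122 and 0.0135. Of the 9 pairs, Npas4 with Junb passed an adjusted p of 0.05 over the genes of both partners, 6 passed it over the genes of Npas4 or Junb alone, and Fos with Egr1 and Egr1 with Arc passed neither. The same threshold was passed by 23.2% of all genes with Npas4 and by 33.8% with Junb, against 0 genes with Fos, 0 with Arc and 4 with Egr1.

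Centred on the mean of each litter, the values were less alike. The median r of the 10 pairs was 0.369 in place of 0.783, and 0 of the 10 reached 0.7. Egr1 with Npas4 was at 0.696, Fos with Egr1 at 0.674 and Arc with Npas4 at 0.673, and Fos with Arc, at 0.604 over the 14 brains, came to -0.038. Npas4 with Junb, at 0.792 over the 14 brains and 0.543 without litter B, came to 0.295. Egr1 with Junb came to 0.211. With genotype and sex also taken out, r was 0.961 for Egr1 with Npas4, 0.703 for Arc with Npas4 and 0.427 for Fos with Arc, but 0.135 for Fos with Egr1. It was 0.216 for Npas4 with Junb and 0.073 for Egr1 with Junb. Few degrees of freedom remain in these values. Over the 14 brains Dusp1 stood apart from the group, but less so within litters. It gave r = -0.563 with Junb (permutation p = 0.0365, rho = -0.512 with permutation p = 0.0648, adjusted permutation p for r of 0.0882 and 0.102) and r = -0.489 with Npas4 (permutation p = 0.0768), but 0.310 and -0.080 within litters. With Fos, Egr1 and Arc the r of Dusp1 was -0.178, -0.311 and -0.364 over the 14 brains, but 0.526, 0.197 and 0.092 within litters. The highest r of Dusp1 over the 14 brains was with Btg2, at 0.549 (permutation p = 0.0411, rho = 0.319 with permutation p = 0.266, adjusted permutation p for r of 0.112 and 0.266), with 0.475 within litters, but 0.159 without litter B. It was 0.114 without the 2 brains farthest from the Btg2 median, and 0.522 without the 2 farthest from the Dusp1 median.

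**Figure D5:**
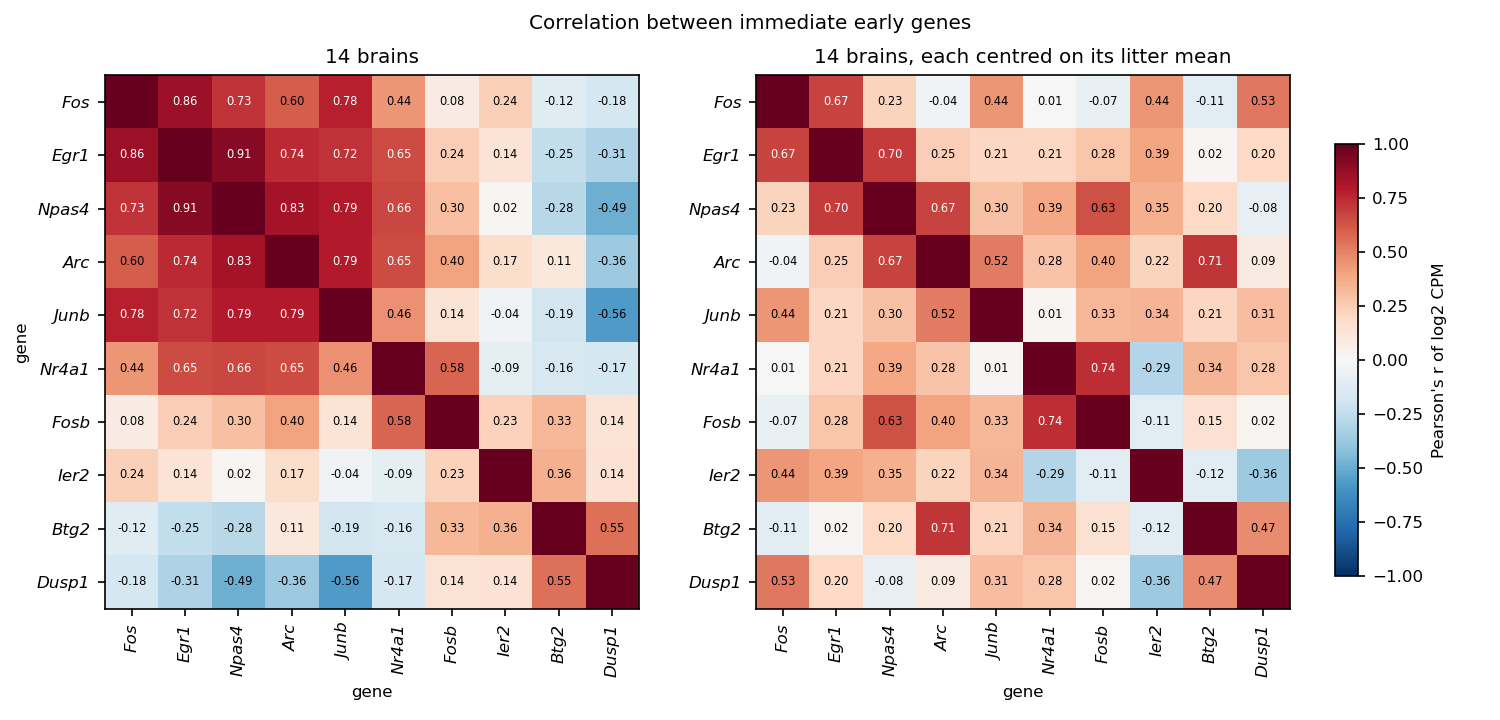
Pearson's r of log2 CPM between the 10 immediate early genes (both axes list the genes) over the 14 brains (left) and with each brain centred on its litter mean (right), on a colour scale from -1 (blue) to 1 (red). The block of Fos, Egr1, Npas4, Arc and Junb holds r from 0.604 to 0.913 on the left, and -0.038 to 0.696 on the right.

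The genes most like Fos over the 14 brains, outside the 10 and with a mean of at least 1 CPM, were the cilia transport gene Ift57 (r = 0.874), the retinoblastoma relative Rbl2 (r = 0.862), Card10 (r = 0.862), the matrix protein Tnxb (r = 0.860), the ERK phosphatase Dusp6 (r = 0.857), 9530077C05Rik, Jph3 and Abi1. Those most like Egr1 included Dglucy (r = 0.914), the acyltransferase Crat (r = 0.902), Tmem266 (r = 0.895), 9530077C05Rik (r = 0.892), Dusp6 (r = 0.889), B230303A05Rik and Cfap70. Dusp6 and 9530077C05Rik were in both lists. These are descriptions over 14 brains that share litters.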

How the data were processed

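RNA-SEQ of 7 WT and 7 Capn15 KO P2 mouse brains was analysed. The authors deposited raw counts per gene, not normalized, for 17927 genes, aligned to GRCm38 with STAR. The labels name featureCounts and a stranded TruSeq kit, the study's methods another counter and kit, so Junb and Dusp1, which overlap genes on the opposite strand, are uncertain. Fits used edgeR 4.0.16 in R 4.3.3 (TMM factors, litter, sex and genotype, genes with at least 1 count, Benjamini-Hochberg FDR over all genes, threshold 0.05), with DESeq2 1.42.0 and limma 3.58.1 as alternatives. Log2 CPM used a prior count of 2, and correlations 100000 permutations, which limits how small adjusted values become. Exon lengths came from GENCODE M21. WT and Capn15 KO brains with the same number shared a litter (correlation of their deviations from the group means from -0.419 to 0.354, mean 0.106). On simulated counts for 17927 genes, with the spread fitted to these data, the genotype test recovered 92 of 100 genes changed 1.5-fold. It made 13 false calls among all genes. The changed genes had a mean of at least 1 CPM and no labels were in conflict. Smaller changes, genes as low as Fosb and the conflict in litter F were thus not covered. In the real data edgeR's quasi-likelihood test did not call Capn15 itself (FDR = 0.0747). Wilson intervals cover counting error only, since PCR reads are not independent molecules. The labels do not say more of the brains than that they are separate samples, and p-values measure the spread between them. Members and lists were chosen with earlier results of these data known. Named are the 10 genes, Capn15, up to 3 genes per list by genotype p and by litter p, and the 8 genes most like Fos and Egr1. A gene that this rule names is not reported here.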

Additional observations from a re-analysis of the deposited data

How the results depend on the processing

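For genotype, 0 of the 10 genes were called in each of 28 other settings (other tests, factors, filters, covariates and brains left out). The fold change kept its sign in all of them for Fos, Egr1, Npas4, Junb and Dusp1, and turned in 4 for Ier2, 5 for Fosb, 5 for Btg2, 6 for Arc and 13 for Nr4a1. Without litter B, Egr1 and Npas4 had an unadjusted p under 0.05 for genotype in edgeR's quasi-likelihood test, where 1333 of 17927 genes did. With the replicate block in place of litter, 0 of the 10 were called and the log2 fold change of Fos was 0.13, so that the block changed no call. For sex, 0 were called in each setting. For litter, the 6 calls became 3 without litter F and 1 without litter B, and 3 to 5 with 1 brain left out, 4 in DESeq2 and 4 in limma-voom. The fits without litter B, and the values centred on litter means, were added after the data were seen. The number of pairs with r of at least 0.7 was 9 over the 14 brains. It was 5 without the 2 brains farthest from the median of the gene listed first in the pair (4 of the 9, and Npas4 with Nr4a1). With the median of the other gene, Npas4 with Nr4a1 came to 0.685, Arc with Npas4 to 0.695 and Egr1 with Junb to 0.661. Fos with Junb rose from 0.662 to 0.717 there, and Fos with Egr1 and Egr1 with Npas4 stayed above 0.7. The number was 2 with values centred on litter means (0 of the 9, but Fosb with Nr4a1 and Arc with Btg2), and 6 to 12 with 1 brain left out. Fos with Arc turned to -0.038 with centred values. The cause of these shifts was not tested, and the settings that left brains out also rested on fewer brains. With 10 to 29 counts a library, depth limits Fosb most.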

Other observations

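Stress genes were read beside the activity genes. Over all genes, 0.00558% were called for genotype and 29.6% for litter. Of 10 heat shock genes 0 were called for Capn15 KO against WT and 2 (20%) for litter, Hsph1 and Hspa8. Hspa1b, an inducible chaperone, was at 2.43 CPM in WT and 2.18 CPM in Capn15 KO (log2 fold change -0.30 ± 0.0955 SE, FDR = 0.729, edgeR's quasi-likelihood test). Of 14 hypoxia response genes 0 were called for genotype and 8 (57.1%) for litter, led by P4ha1, Ndrg1 and Ldha. Of 8 choroid plexus markers 0 were called for genotype, and 7 had an unadjusted p under 0.05, beside 5.14% of all genes. Of the 7, 6 were lower in Capn15 KO, among them Kcne2 (log2 fold change -0.36 ± 0.0774 SE, FDR = 0.277), and 1 was higher, Prlr (0.20 ± 0.0896 SE, FDR = 0.959), which is named after its values were seen.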
